A study of Mus musculus with 6 samples.

Results

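The Slc30a family of zinc transporters was examined in RNA-seq libraries of mouse islet β cells labelled by their alleles of Brg1 and Brm, the ATPase subunits of Swi/Snf, a chromatin remodelling complex. Its members were chosen by name, as the 10 genes from Slc30a1 to Slc30a10, out of 24421 rows of the deposited expression table, and all 10 were listed. The groups were 3 control libraries, labelled MIP-CreERT, Brg1f/+, Brm+/-, and 3 βDKO libraries, labelled MIP-CreERT, Brg1f/f, Brm-/-. Both carried R26LSL-tdTomato/+, a reporter that Cre switches on, and all animals had received tamoxifen, were 7 weeks old and were of mixed C57BL/6J and 129SV strain. By this design Brg1 (Smarca4) is to be deleted only where Cre acts, under a mouse insulin promoter, whereas Brm (Smarca2) is altered in the whole animal, and the controls were heterozygous at both genes. The cells were tdTomato-positive and sorted by flow cytometry, and the labels do not say whether a library came from a single animal or a pool, so that p-values measure the spread between these libraries, which may be partly technical.

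Slc30a proteins, also called ZnT, move zinc out of the cytosol, either across the plasma membrane or into organelles, and the Slc39a (ZIP) proteins move it the other way. In β cells, Slc30a8 fills the insulin granule with zinc, around which insulin packs into hexamers and crystals. Other members feed zinc to the Golgi and to enzymes made in the secretory pathway, or release it from the cell when its level rises.

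The level of each transcript is given in TPM, which corrects for gene length and for the library's total, so that levels of different genes can be set side by side. Ins1 and Ins2 took 42.6% to 48.3% of all TPM in controls and 6.37% to 8.93% in βDKO, and the median log2 change of the 10404 genes tested was 0.83 on TPM. Each change is therefore also given after division by median-of-ratios size factors, which brought that median to 0.03. The words rose and fell are kept for genes that passed limma's test (adjusted p under 0.05 over all genes tested) in the same direction on both scales. The 480 genes called lower on TPM were all lower after rescaling, and the 2432 called higher after rescaling were all higher on TPM. A call on both scales is therefore not 2 independent results. A fall is in effect the call on TPM and a rise the call after rescaling. Values are listed in the order of libraries 1 to 3 of each group. Reads recovered from the TPM values summed to 25388872 to 31282056 per library. Smarca4 had a mean of 11.6 TPM in the controls against 10.8 in βDKO, and Smarca2 22.7 against 23.6. Neither was called on TPM by limma (adjusted p = 0.667 and 0.684), and both were lower after rescaling (adjusted p = 5.62e-04 and 0.0101). These values cover whole genes and do not check the deleted part of either. All 8 β-cell markers that were listed passed the expression filter, which by itself does not identify the cells. Their sum was 466487 to 534193 TPM in controls and 68017 to 96332 in βDKO, most of it Ins1 and Ins2. On TPM 2 of the 8 were called higher and 6 lower, where 81.4% and 4.61% of all tested genes were. After rescaling all 8 were called lower, where 21.1% of all tested genes were. Control 1 stood apart in acinar transcripts, with 766.5 TPM over 19 markers against 123 to 241 in the other 5 libraries. It also had the largest share of Ins1 and Ins2, 48.3% of TPM against 42.6% and 43.3% in controls 2 and 3. Its size factor was the smallest, 0.639 against 0.802 and 0.804. Control 1 had the lowest TPM of the 3 controls for all 7 detected Slc30a genes. After rescaling it was the lowest control for 3 of those 7. βDKO 1 and βDKO 2 were close in summed acinar markers (240.5 and 240.6 TPM), with βDKO 3 at 124. They were also close in Slc30a5 (100.4 and 99.9 against 124) and Mt3 (55.4 and 55.4 against 43.9), though not in Slc30a8 (32.8 and 34.6 against 32.4). The labels do not say whether βDKO 1 and βDKO 2 share a source, so the spread among βDKO libraries may be too small.

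Slc30a8 fell, and it was the single member called in the same direction on both scales. Of the 10 members, 7 passed the expression filter of at least 5 TPM in at least 3 libraries, each of them in all 6. On TPM, limma called 4 of the 7 higher and 1 lower, and 2 were not called, where 86.0% of all tested genes were called, with 81.4% higher and 4.61% lower. After rescaling, 0 were called higher and 4 lower, and 3 were not called, where 44.5% of all tested genes were called, with 23.4% higher and 21.1% lower. The groups did not overlap for 5 of the 7 on TPM, 4 with βDKO above and 1 with βDKO below, beside 88.0% of all tested genes, with 83.2% above and 4.82% below. After rescaling they did not overlap for 4 of the 7, all with βDKO below, beside 58.0% of all tested genes, with 31.0% above and 27.0% below. The median log2 change of the 7 was 0.47 on TPM and −0.36 after rescaling, against 0.83 and 0.03 for all tested genes.

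**Figure D1:**
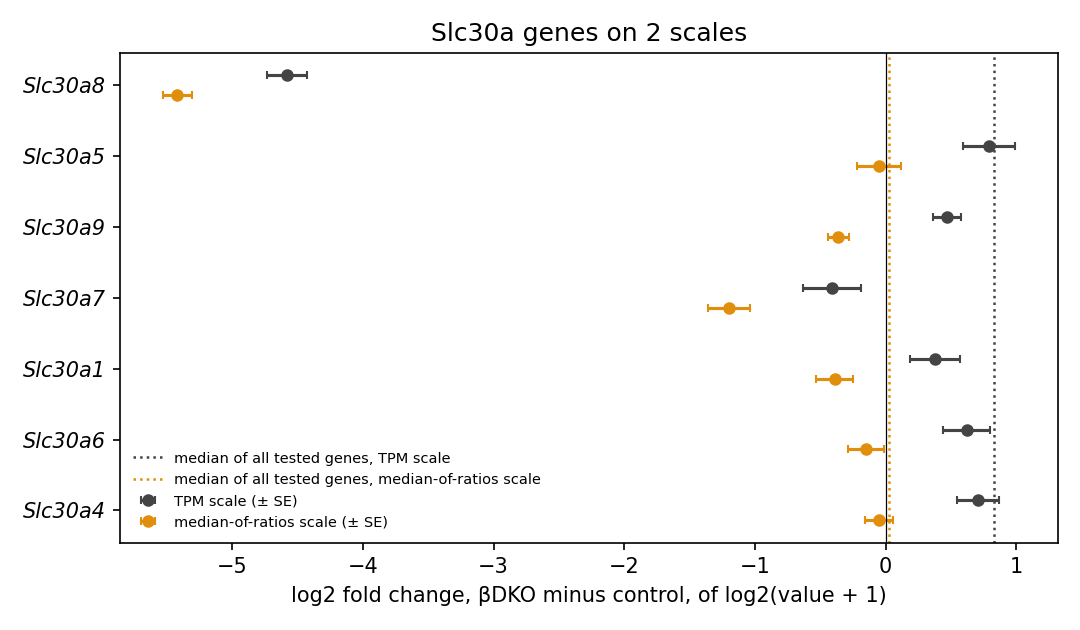
Log2 fold change (βDKO minus control, of log2(value + 1)) with its SE for the 7 detected Slc30a genes on TPM and after median-of-ratios rescaling, with dotted lines at the median of all tested genes on each scale. Slc30a8 lies at −4.58 and −5.42, Slc30a7 at −0.41 and −1.20, and the other 5 genes between 0.38 and 0.79 on TPM and between −0.39 and −0.05 after rescaling.

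Slc30a8 was the most abundant family member in controls and fell below Slc30a5 and Slc30a9 in βDKO. It lies on chromosome 15 from 52295553 to 52335798 (mm10, GENCODE M21), with 8 exons on the plus strand. Its level was 644, 847 and 1008 TPM in the controls against 32.8, 34.6 and 32.4 TPM in βDKO 1 to 3. The groups lay far apart, and the 3 βDKO values were close to each other, with an SD of 1.21 around a mean of 33.2 TPM, whereas the controls had an SD of 182 around 833 TPM (n = 3 each).

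The fall of Slc30a8 was 25.1-fold on TPM and 44.7-fold after rescaling. The log2 change was −4.58 on TPM (SE 0.15, limma adjusted p = 8.22e-07) and −5.42 (SE 0.11, limma adjusted p = 1.15e-07) after rescaling. By log2 change it ranked 13 among the falls of the 10404 genes on TPM and 10 after rescaling. On TPM 4.61% of all tested genes were called lower, and the same 4.61% were called lower on both scales. These values rested on 19535 to 28368 recovered reads in controls and 634 to 688 in βDKO, counted up to a factor common to the gene's libraries. In bulk RNA, fewer cells that hold a transcript and less of it per cell cannot be told apart.

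Slc30a8 is also expressed by α cells, and the α-cell transcripts Gcg and Ttr were lower in βDKO as well. Gcg, which encodes glucagon, was at 4343, 3381 and 1870 TPM in the controls against 763, 714 and 466 TPM in βDKO, and it fell. Ttr, which encodes transthyretin and is abundant in α cells, was at 672, 513 and 420.1 TPM in the controls against 73.3, 72.9 and 80.4 TPM in βDKO, and it fell too. Neither gene's groups overlapped. The islet hormone genes Sst, Ppy and Pyy also fell, with log2 changes on TPM of −0.77, −1.74 and −1.57. The δ-cell marker Rbp4 rose (1.86 on TPM), and Hhex, another, was not called on TPM and was called lower after rescaling. The 9 immune markers summed to 119 to 203 TPM in controls and 8.30 to 14.1 TPM in βDKO. Most of the control sum was C1qa, at 86.5, 137 and 169 TPM in controls 1 to 3. The 3 tested, C1qa, Fcer1g and Cd79a, were called lower on both scales, where 4.61% of all tested genes were. Of those not tested, Ptprc was at most 0.0775 TPM and Cd3e at most 0.0668 TPM. Lyz2, C1qb and Adgre1 had lower means in βDKO, each being highest in control 2. The mean of Cd68 was 3.45 TPM in controls and 3.75 TPM in βDKO. The controls alone brought Cd79a and Fcer1g past the filter, so that both had to be lower. The part of α, other islet or immune cells in the fall of Slc30a8 was not tested.

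**Figure D2:**
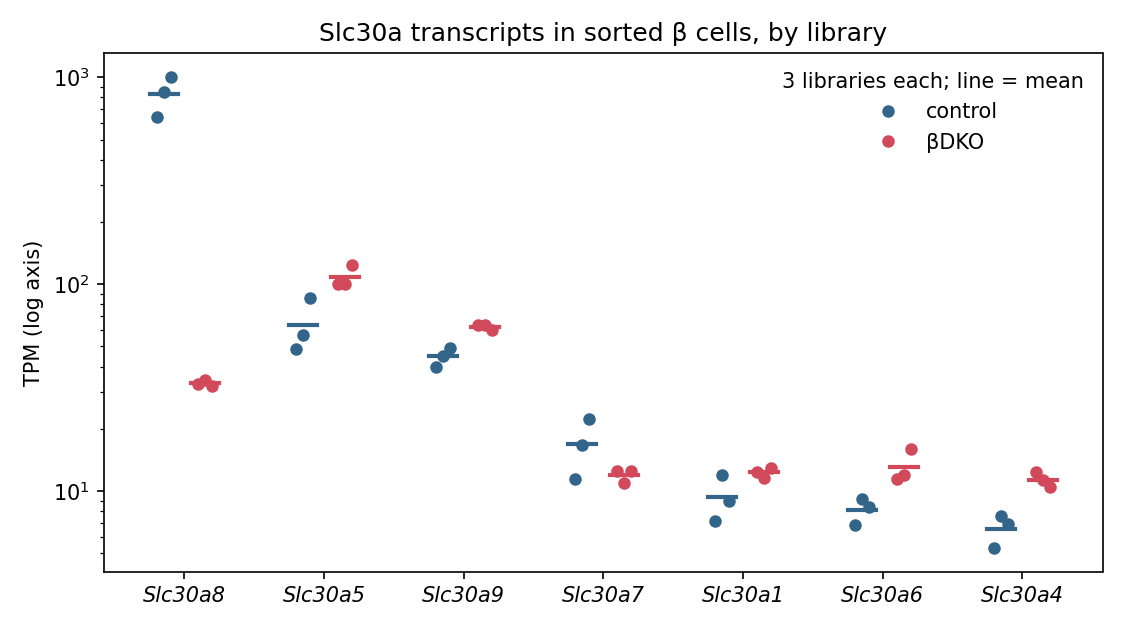
TPM (log axis) of the 7 detected Slc30a genes in each of 3 control and 3 βDKO libraries, with a line at each group's mean. The control libraries of Slc30a8 lie between 644 and 1008 TPM and those of βDKO between 32.4 and 34.6 TPM; the highest value among the other 6 genes is 124 TPM, for Slc30a5 in βDKO 3.

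Relative to the insulin transcripts, whose product it packs with zinc, Slc30a8 was lower in every βDKO library than in any control. For every 1000 TPM of Ins1 and Ins2 together there were 1.33, 1.99 and 2.33 TPM of Slc30a8 in the controls against 0.514, 0.531 and 0.362 in βDKO 1 to 3. This ratio is taken within a library and does not depend on the scale. The groups did not overlap, the control mean of 1.88 ± 0.504 being 4.01-fold the βDKO mean of 0.469 ± 0.0930 (SD, n = 3 each). The log2 difference was −1.99, with p = 0.1 in a two-sided exact permutation test, which cannot give less with 3 libraries against 3. Of the insulin transcripts themselves, the mean TPM of Ins1 was 17.0-fold lower in βDKO and that of Ins2 4.26-fold lower, so that Slc30a8, at 25.1-fold, fell by more than either.

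The make-up of the family differed between the groups. Slc30a8 held 84.4%, 85.2% and 84.7% of the summed Slc30a TPM in the controls against 13.4%, 14.2% and 12.0% in βDKO 1 to 3. The share was nearly the same in the 3 libraries of each group, although the TPM of Slc30a8 varied among the controls. Set against the sum of the other 9 members, the ratio was 5.41, 5.75 and 5.54 in controls and 0.154, 0.166 and 0.137 in βDKO. Slc30a5 took the first place, with 6.42% ± 0.771 of the family sum in controls and 42.7% ± 3.03 in βDKO, and Slc30a9 went from 4.64% ± 0.549 to 24.7% ± 2.01 (SD, n = 3 each). These are shares of one total, so that a smaller share of Slc30a8 makes the others larger. The other 9 members summed to 149 ± 31.4 TPM in the controls and to 219 ± 15.2 TPM in the βDKO libraries, and after rescaling to 199 ± 23.7 and 163 ± 13.0.

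**Figure D3:**
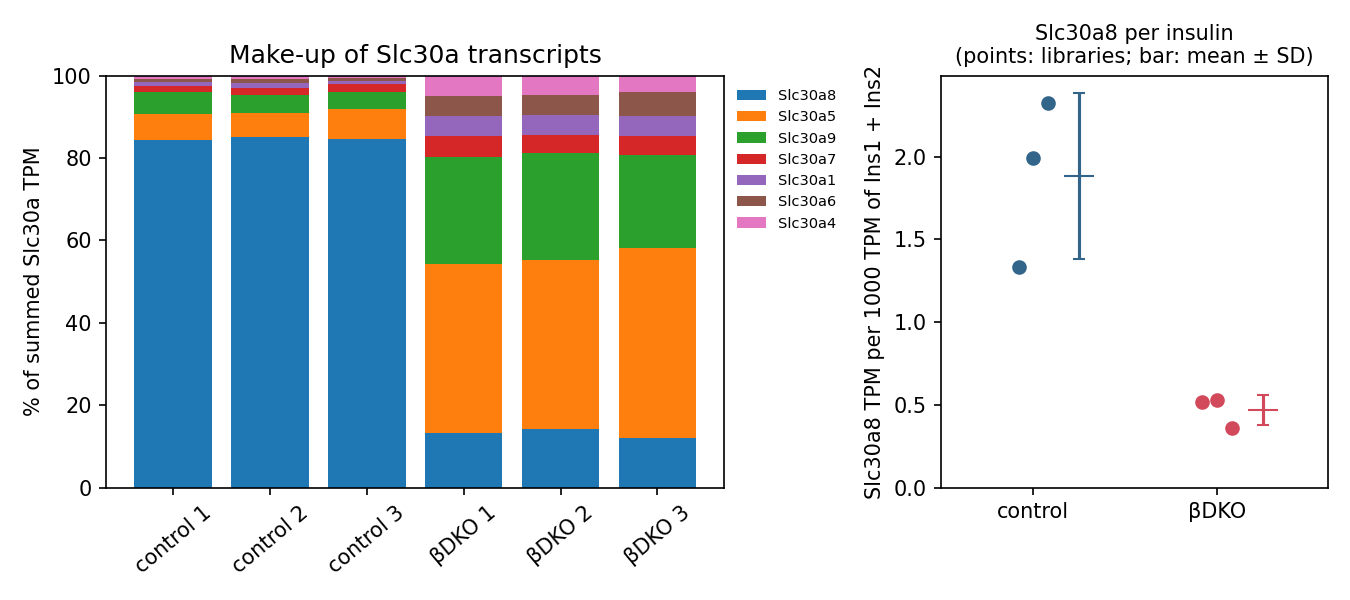
Left, share of each gene in the summed Slc30a TPM (percent) of each library, and right, TPM of Slc30a8 per 1000 TPM of Ins1 and Ins2 in each library, with the group mean ± SD (n = 3). Slc30a8 makes up 84.4% to 85.2% of the family in controls and 12.0% to 14.2% in βDKO, and the right panel shows 1.33 to 2.33 in controls against 0.362 to 0.531 in βDKO.

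In order of level, controls had Slc30a8 first, then Slc30a5 and Slc30a9, whose ranges overlapped, then Slc30a7, Slc30a1, Slc30a6 and Slc30a4, each of which overlapped its neighbour. In βDKO the order was Slc30a5, Slc30a9 and Slc30a8, with no overlap among these, and then Slc30a6, Slc30a1, Slc30a7 and Slc30a4, again with each overlapping the next. Slc30a7, at 16.8 ± 5.38 TPM in the controls and at 12.0 ± 0.867 TPM in the βDKO libraries (SD, n = 3 each), led the low group in controls and stood near its end in βDKO, among neighbours from which it could not be separated.

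Among the transporters of the early secretory pathway, Slc30a7 was called lower after rescaling, while Slc30a5 and Slc30a6 were called higher on TPM and not called after rescaling. Slc30a5 and Slc30a6 form a heterodimer and Slc30a7 a homodimer, and both complexes load zinc onto enzymes such as alkaline phosphatases as these pass through the Golgi. Slc30a7 (chromosome 3, 115938973 to 116007406, minus strand) was at 11.5, 16.7 and 22.2 TPM in the controls, and the βDKO libraries held 12.5, 10.99 and 12.5 TPM. On TPM the groups overlapped through control 1, and the log2 change of −0.41 (SE 0.22) did not pass limma (adjusted p = 0.112). After rescaling, its levels were 18.0, 20.8 and 27.6 in controls and 9.10, 8.25 and 9.41 in βDKO, without overlap, a log2 change of −1.20 (SE 0.16, limma adjusted p = 6.40e-04). Without control 1, the log2 change on TPM was −0.65 and passed limma (adjusted p = 0.00395), and without control 3 it was −0.20 (adjusted p = 0.353).

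Slc30a5 (chromosome 13, 100802648 to 100833427, minus strand) was at 48.4, 56.7 and 86.1 TPM in the controls, and the βDKO libraries held 100.4, 99.9 and 124 TPM. Every βDKO library exceeded every control on TPM, and its log2 change was 0.79 (SE 0.20, limma adjusted p = 0.00670). After rescaling the groups overlapped, with a log2 change of −0.05 (SE 0.17, limma adjusted p = 0.830). Slc30a6 (chromosome 17, 74395608 to 74424221, plus strand) was at 6.85, 9.17 and 8.39 TPM in the controls, and the βDKO libraries held 11.5, 11.9 and 16.0 TPM. The groups were apart on TPM and overlapped after rescaling, with log2 changes of 0.62 (SE 0.18, limma adjusted p = 0.0104) and −0.15 (SE 0.14, limma adjusted p = 0.428).

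Ratios within a library, chosen after these values had been seen and given without a test, put the same genes side by side. The partners Slc30a5 and Slc30a6 stood at 7.06, 6.18 and 10.3 to 1 in controls and 8.76, 8.39 and 7.76 to 1 in βDKO, with the groups overlapping. The ratio of Slc30a7 to Slc30a5 was 0.237, 0.295 and 0.258 in controls and 0.124, 0.110 and 0.1004 in βDKO. No βDKO library reached the lowest control, and the mean ratio was 2.36-fold lower. Against Slc30a6, Slc30a7 stood at 1.68, 1.82 and 2.65 in controls and at 1.09, 0.923 and 0.779 in βDKO, again without overlap.

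Slc30a4, a transporter of vesicles and endosomes whose loss in the mouse leaves milk without enough zinc, was among the least abundant members detected. It lies on chromosome 2 from 122681233 to 122702663 (minus strand). Its level was 5.29, 7.57 and 6.90 TPM in the controls against 12.3, 11.3 and 10.5 TPM in βDKO. All 3 βDKO libraries were above the controls on TPM, with a log2 change of 0.71 (SE 0.16, limma adjusted p = 0.00368). After rescaling the values were 8.28 to 9.43 in controls and 7.88 to 8.97 in βDKO, a log2 change of −0.05 (SE 0.11, limma adjusted p = 0.742).

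Slc30a9, known as an exporter of zinc from mitochondria, was next to Slc30a5 in level in both groups. It lies on chromosome 5 from 67306955 to 67358443 (plus strand). It was at 39.9, 45.2 and 49.3 TPM in the controls, and the βDKO libraries held 63.3, 63.3 and 60.3 TPM. The groups did not overlap on TPM, where it was higher by a log2 change of 0.47 (SE 0.11, limma adjusted p = 0.00400), nor after rescaling, where it was lower by a log2 change of −0.36 (SE 0.08, limma adjusted p = 0.00852). Its direction flipped between the scales, since its log2 change on TPM was below the median of 0.83 of all tested genes.

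Slc30a1, the exporter of the plasma membrane, was not called on TPM. It lies on chromosome 1 from 191906767 to 191913247 (plus strand) and has 2 exons. Its level was 7.19, 12.0 and 8.96 TPM in the controls against 12.3, 11.6 and 13.0 TPM in βDKO. The groups overlapped through control 2, and the log2 change was 0.38 (SE 0.19, limma adjusted p = 0.0828). After rescaling it was 11.3, 14.9 and 11.1 in controls and 8.99, 8.72 and 9.76 in βDKO, with a log2 change of −0.39 (SE 0.14, limma adjusted p = 0.0466). That call was lost without control 2 (adjusted p = 0.107) and without any of the βDKO libraries (adjusted p = 0.0696 to 0.150), and without control 2 the gene was called higher on TPM (log2 change 0.56, adjusted p = 0.0151).

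Slc30a1 and the metallothionein genes Mt1 and Mt2 are textbook targets of the zinc-sensing factor Mtf1, which binds metal response elements. A promoter window of each, 300 bases from RefSeq on GRCm38.p6 and 5′ to 3′ on the gene's strand, is shown. Matches within these windows can thus be seen beside the values of these genes, and elements outside them are not shown. Capitals mark each match to the core letters TGCACNC or TGCGCNC on either strand, so that a match on the other strand is printed as its reverse complement. None of the matches shown overlaps another.
Slc30a1 (chr1:191906531-191906830, plus strand): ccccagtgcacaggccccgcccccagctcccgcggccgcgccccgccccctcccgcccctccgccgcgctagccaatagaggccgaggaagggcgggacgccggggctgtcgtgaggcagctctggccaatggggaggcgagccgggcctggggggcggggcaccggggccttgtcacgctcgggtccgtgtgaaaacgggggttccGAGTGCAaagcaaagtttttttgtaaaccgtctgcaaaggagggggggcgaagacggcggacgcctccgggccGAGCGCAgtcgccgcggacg
Mt1 (chr8:94178839-94179138, plus strand): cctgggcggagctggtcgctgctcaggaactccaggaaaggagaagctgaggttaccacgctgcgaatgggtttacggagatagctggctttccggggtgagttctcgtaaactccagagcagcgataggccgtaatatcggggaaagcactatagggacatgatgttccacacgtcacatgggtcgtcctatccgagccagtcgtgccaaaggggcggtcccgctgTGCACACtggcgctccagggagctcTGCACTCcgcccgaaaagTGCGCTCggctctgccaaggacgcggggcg
Mt2 (chr8:94172368-94172667, plus strand): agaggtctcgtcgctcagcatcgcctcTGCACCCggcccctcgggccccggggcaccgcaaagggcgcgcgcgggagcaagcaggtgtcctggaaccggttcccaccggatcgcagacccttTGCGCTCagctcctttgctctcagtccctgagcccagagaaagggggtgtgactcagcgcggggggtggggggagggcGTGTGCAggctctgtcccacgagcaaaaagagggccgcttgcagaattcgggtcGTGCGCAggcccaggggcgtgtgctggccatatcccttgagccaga

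The window held 2 matches for Slc30a1, 3 for Mt1 and 4 for Mt2. At least 1 match was present in 25.7% of the 32851 promoter windows of the same length, and more than 1 in 7.11%. Windows were on hand for 9 of the 10 members. Of the others, Slc30a4 and Slc30a10 had 3 matches each, of which 2 overlapped in Slc30a10, Slc30a2 had 2 and Slc30a5 had 1. Slc30a3 had 1 in the first of its 2 windows and 0 in the second, and Slc30a6, Slc30a7 and Slc30a9 had 0. These are matches of letters and not measured binding sites, and elements outside a window were not counted. The RefSeq starts behind the windows do not always match GENCODE M21. The Mt2 window ended at 94172667, where GENCODE M21 starts the gene at 94172664. The Slc30a2 window began at 134343216, after its GENCODE M21 start of 134343181. CG dinucleotides numbered 12 to 46 in the members' windows, against a median of 7 over all windows, and at 12 to 23 in those of the members listed at 0.

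Slc30a2, Slc30a3 and Slc30a10 were listed at 0 in all 6 libraries. Slc30a2 serves secretory vesicles of gland cells such as those of breast and exocrine pancreas, Slc30a3 fills synaptic vesicles of glutamate neurons and Slc30a10 exports manganese. A count of 0 allows up to 0.0959 to 0.118 CPM (3 reads, scaled to the recovered reads of each library), from counting error alone. These limits are approximate, since each gene's recovered reads are known only up to a factor. Acinar transcripts were present while Slc30a2 was at 0, the 19 markers summing to 123 to 766.5 TPM. Of the acinar transcription factors among them, Ptf1a was at 0 in all libraries and Rbpjl at or below 0.0761 TPM, while Bhlha15 stood at 45.4 to 97.3 TPM. Bhlha15 alone made up most of the sum in control 3 (97.3 of 123 TPM) and in βDKO 3 (95.0 of 124 TPM). The genes lie on chromosome 4 (134343181 to 134354484), chromosome 5 (31086106 to 31108237) and chromosome 1 (185454848 to 185468762), and no fold or test applies to them.

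Exons of several members overlap other annotated transcripts on the opposite strand, and the sources used here do not say whether strand was used in counting, so that reads of such pairs cannot be told apart. The overlaps are 468 bases of Slc30a1 with 1700034H15Rik, which stood at 0.315 to 1.37 TPM in controls and 1.46 to 1.94 TPM in βDKO, 130 bases of Slc30a4 with 4930417H01Rik, and 637 and 1165 bases of the 11116 exonic bases of Slc30a7 with Gm43106 and Gm6649, both processed pseudogenes. Slc30a10, at 0, overlaps Gm2061 by 533 bases, and outside the family Mt2 overlaps Gm45774 by 432. Slc30a5, Slc30a6, Slc30a8 and Slc30a9 had no exon overlap in this annotation.

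By the distance between log2(TPM + 1) profiles, each centred on its own mean over the 6 libraries, the gene nearest to Slc30a8 was Slc2a2, the glucose transporter of mouse β cells, at a distance of 0.30. It was at 318, 471 and 519 TPM in the controls, and the βDKO libraries held 14.4, 14.2 and 15.8 TPM. Like Slc30a8, it was lowest in control 1 and highest in control 3 among the controls, an order that itself enters the distance. The same order held for Fmo1, at 200, 358 and 361 TPM in controls 1 to 3. Next came Fmo1, a flavin monooxygenase, at 0.65, Ucn3, a peptide of mature β cells, at 0.67, and Mafa, an activator of the insulin genes, at 0.68. Fmo1 went from 306 ± 91.8 to 12.7 ± 3.59 TPM, Ucn3 from 577 ± 21.6 to 30.7 ± 1.93 TPM and Mafa from 712 ± 36.8 to 22.7 ± 0.895 TPM (SD, n = 3 each). Mir344i, a microRNA gene, came after them at 0.72, from only 4 to 7 recovered reads in each control and none in βDKO. The distance was taken over 6 libraries in 2 groups, so it mostly reads the size of the difference between the groups.

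**Figure D4:**
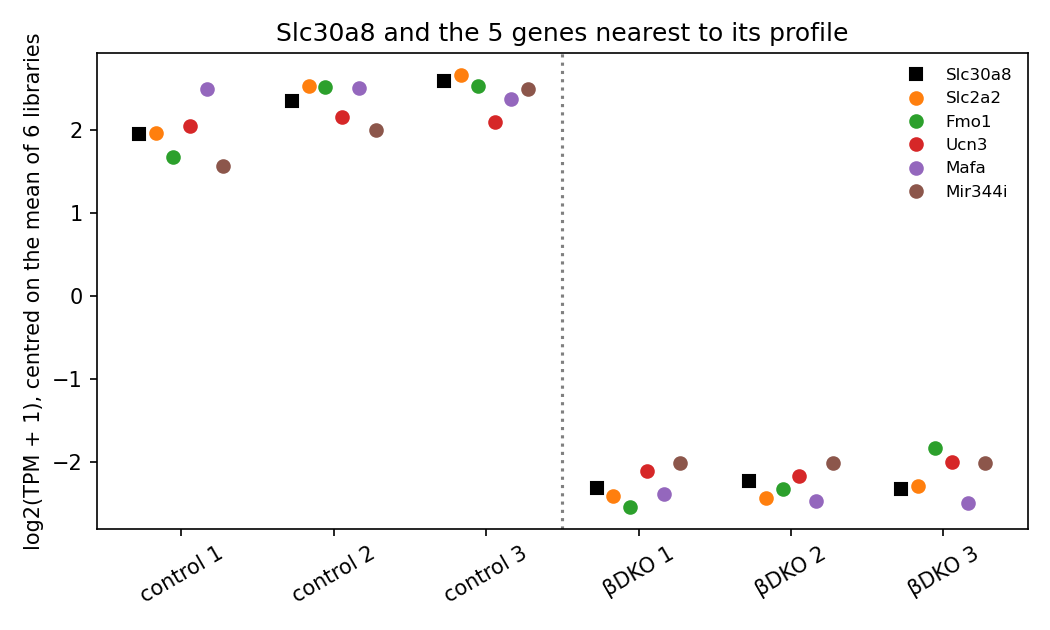
Log2(TPM + 1) of Slc30a8 and of the 5 genes nearest to it in each of the 6 libraries, each gene centred on its own mean. Slc2a2 lies at a distance of 0.30 from Slc30a8 and Mir344i at 0.72, and all 6 genes are above their mean in the controls and below it in βDKO.

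The other genes of zinc handling, a list of 28, were read from the same fits. Of these, 18 passed the expression filter. Among them, Slc39a14 reached 5 TPM in no control and Mt3 in only 1, so that the filter favoured a higher call for both. On TPM, 16 were called higher, 1 lower and 1 not called, beside 81.4% of all tested genes higher and 4.61% lower. After rescaling, 5 were higher, 3 lower and 10 not called, beside 23.4% higher and 21.1% lower. On both scales 5 rose and 1 fell, beside 23.4% and 4.61%. The median log2 change of the 18 was 0.85 on TPM and 0.06 after rescaling.

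The ZIP importers, which bring zinc into the cytosol, had median log2 changes of 0.82 on TPM and −0.01 after rescaling. Of 14 listed, 9 were tested, and all 9 were called higher on TPM, where 81.4% of all tested genes were. For 1 of the 9, Slc39a14, the filter favoured a higher call, since no control reached it. After rescaling 1 was higher and 2 lower, where 23.4% and 21.1% of all tested genes were. Those lower, Slc39a1 (log2 change −0.53) and Slc39a9 (−0.30), were named after their values had been seen. On TPM the call of Slc39a1 (limma adjusted p = 0.0451) was lost without any 1 of the controls, βDKO 1 or βDKO 2 (adjusted p = 0.0509 to 0.175) and kept without βDKO 3 (0.0255). After rescaling the call of Slc39a9 (limma adjusted p = 0.0289) was lost without control 3, βDKO 1 or βDKO 2 (adjusted p = 0.0631 to 0.140). Slc39a13, which acts in the secretory pathway, rose from 13.7 ± 2.24 to 31.6 ± 2.78 TPM (SD, n = 3 each), with log2 changes of 1.16 (limma adjusted p = 2.37e-04) and, after rescaling, 0.35 (limma adjusted p = 0.0326). The second of these was lost without control 2 or any of the βDKO libraries (adjusted p = 0.0526 to 0.0993). Slc39a7, which releases zinc from the endoplasmic reticulum, held 49.7% to 53.8% of the tested Slc39a TPM in every library. It was at 180.5 ± 18.4 TPM in the controls and at 278 ± 22.7 TPM in the βDKO libraries, with log2 changes of 0.62 on TPM and −0.22 (limma adjusted p = 0.111) after rescaling.

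Slc39a10 (0.89 on TPM), Slc39a14 (0.87), Slc39a3 (0.82) and Slc39a11 (1.28) were called higher on TPM and not after rescaling, where their log2 changes were 0.12, 0.17, −0.01 and 0.49. Slc39a14, a carrier of zinc, iron and manganese, passed the filter only through its βDKO libraries. Slc39a11 was called after rescaling without control 2 (log2 change 0.74, limma adjusted p = 0.00636). Slc39a6, also named after its values had been seen, was higher on TPM (log2 change 0.61, limma adjusted p = 0.0110) and not called after rescaling (−0.21, 0.148), where it was called lower without control 1 (−0.30, 0.0279). The importers not tested, Slc39a2, Slc39a4, Slc39a5, Slc39a8 and Slc39a12, were at most 1.25 TPM in every library, with Slc39a12 listed at 0.

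The metallothioneins, small proteins that bind zinc and buffer it, differed among themselves. Mt3, the form best known from brain, rose from 6.34, 4.15 and 4.78 TPM in controls 1 to 3 to 55.4, 55.4 and 43.9 TPM in βDKO, 10.1-fold on TPM. The groups were far apart, and Mt3 passed the filter with 1 control and all 3 βDKO libraries, so that the filter favoured a higher call. Its log2 change was 3.12 on TPM (SE 0.18, limma adjusted p = 5.64e-06) and 2.34 (SE 0.21, limma adjusted p = 9.87e-05) after rescaling. Mt3 made up 0.229% to 0.557% of the summed metallothionein TPM in controls and 1.53% to 2.11% in βDKO.

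The abundant forms Mt1 and Mt2, whose promoter windows are printed with that of Slc30a1, were higher on TPM and not called after rescaling. Mt1 was at 668, 1058 and 955 TPM in the controls, and the βDKO libraries held 2264, 2356 and 1308 TPM. Mt2 was at 463, 752 and 615 TPM in the controls, and the βDKO libraries held 1146, 1218 and 733 TPM. In both genes βDKO 3 stood below the other βDKO libraries, and for Mt2 it lay within the range of the controls. After rescaling, the log2 changes were 0.27 (SE 0.22, limma adjusted p = 0.354) for Mt1 and −0.10 (SE 0.20, limma adjusted p = 0.710) for Mt2. Without βDKO 3, Mt1 was called higher after rescaling (log2 change 0.54, adjusted p = 0.0217). The call of Mt2 on TPM (limma adjusted p = 0.0145) was lost without control 1, βDKO 1 or βDKO 2 (adjusted p = 0.0554 to 0.0607).

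Mtf1, the factor that binds those elements, was at 11.2 ± 1.97 TPM in the controls and at 16.0 ± 1.61 TPM in the βDKO libraries (SD, n = 3 each), with log2 changes of 0.49 (limma adjusted p = 0.0215) on TPM and −0.30 (limma adjusted p = 0.0650) after rescaling. On TPM its call was lost without βDKO 1 or βDKO 3 (adjusted p = 0.0622 and 0.0793), and after rescaling it was called lower without control 1 or βDKO 3 (0.0477 and 0.0448). Mt4 was listed at 0 in all libraries.

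Tmem163, a zinc transporter of vesicles outside both families, was lower. It was at 65.0, 71.0 and 76.9 TPM in the controls, and the βDKO libraries held 55.7, 56.8 and 49.0 TPM, without overlap. It fell by a log2 change of −0.39 on TPM (SE 0.11, limma adjusted p = 0.00971) and −1.23 (SE 0.09, limma adjusted p = 4.01e-05) after rescaling, and 152 of its exonic bases overlap Mgat5 on the opposite strand. It was the single gene of the 28 to fall on both scales.

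Of 8 enzymes that hold zinc and are made in, or act on cargo of, the secretory pathway, 4 passed the filter and 3 of these rose, where 23.4% of all tested genes were higher on both scales. Cpe, the carboxypeptidase that trims prohormones in the granule, rose from 3364, 2842 and 3348 TPM in controls 1 to 3 to 11307, 11406 and 11086 TPM in βDKO, with log2 changes of 1.83 (SE 0.08, limma adjusted p = 2.57e-06) and 0.97 (SE 0.16, limma adjusted p = 0.00187). Enpp2, or autotaxin, a secreted lysophospholipase, rose 2.74-fold on TPM, with log2 changes of 1.47 and 0.62 (limma adjusted p = 9.90e-05 and 0.00328). Ide, the insulin-degrading enzyme, rose 2.45-fold on TPM. Its call after rescaling (log2 change 0.42, limma adjusted p = 0.0377) was lost without control 2, control 3 or any of the βDKO libraries (adjusted p = 0.0517 to 0.103). Cpd, a related carboxypeptidase, had log2 changes of 0.54 and −0.28 and was not called (limma adjusted p = 0.0845 and 0.262). On TPM it was called without control 3 (0.0293), and after rescaling it was called lower without control 1 (0.00879). Alpl, Enpp1, Enpp3 and Nt5e did not pass the filter, and the alkaline phosphatase gene Alpl had a mean of 0.0180 TPM in the controls and of 0.107 TPM in the βDKO libraries.

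**Figure D5:**
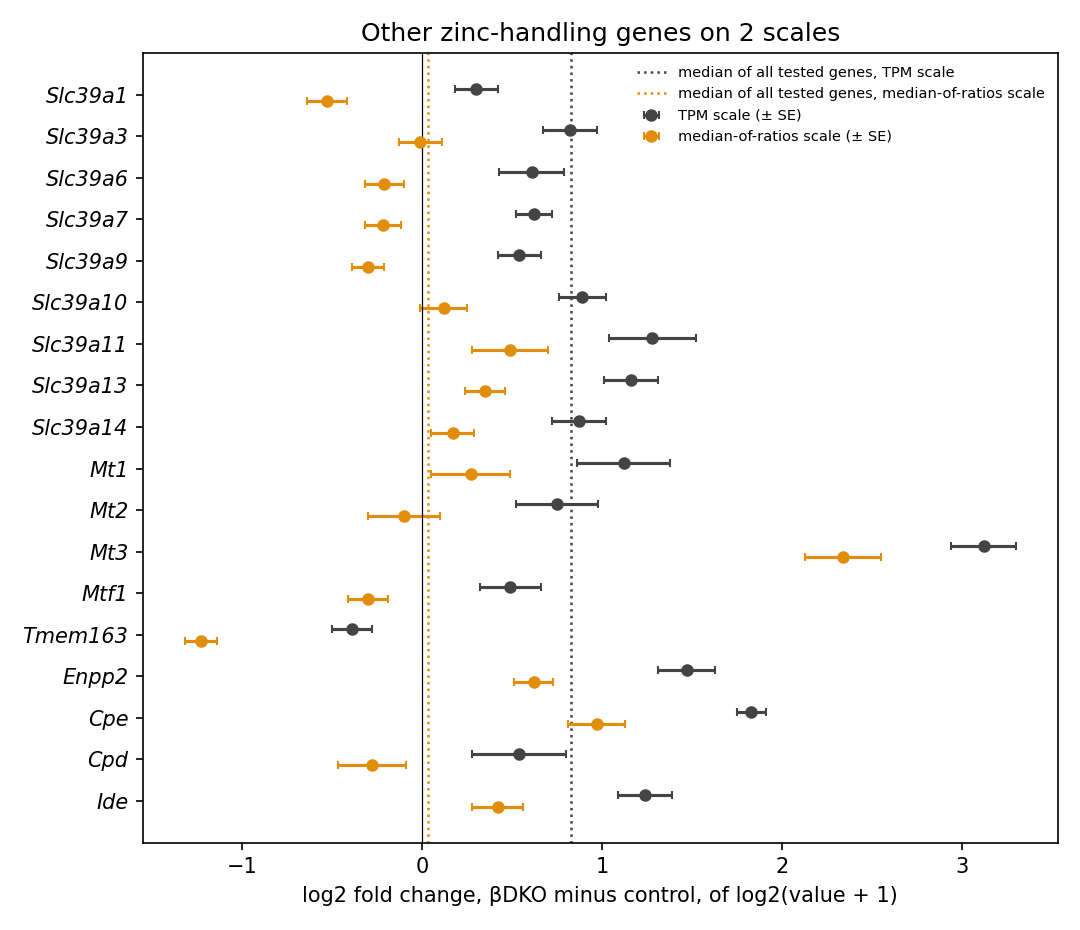
Log2 fold change (βDKO minus control, of log2(value + 1)) with its SE for the 18 tested genes of zinc handling outside the Slc30a family, on TPM and after median-of-ratios rescaling, with dotted lines at the median of all tested genes on each scale. Mt3 lies farthest to the right, at 3.12 and 2.34, and Tmem163 farthest to the left, at −0.39 and −1.23.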

How the data were processed

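RNA-seq was analysed for 3 control and 3 βDKO libraries of sorted islet β cells. The authors deposited TPM values, per the file headers, 1 column per library. The submitters' processing notes name mm10 and, as tools, HISAT2, HTSeq, DESeq2, Trimmomatic and FastQC. What each did, its version, the annotation, gene lengths and strandedness were not given in the sources used here. Because TPM fixes each library's total, a change in very abundant transcripts moves the values of all others. Genes reaching 5 TPM in 3 or more libraries (10404 of 24421 rows) were fitted as log2(TPM + 1) with limma 3.58.1 in R 4.3.3 (trend, robust, two-sided, Benjamini-Hochberg over all genes tested, threshold 0.05), with group as the single factor. Such fold changes understate the change of low genes. The fit was repeated after dividing TPM by median-of-ratios size factors (0.639 to 1.37), with the same genes. Fold values are ratios of group means. Reads were recovered from the ratios between libraries, within 0.01 of a read, for 16625 of 16625 rows above 0 in at least 2 libraries (100.0%). Each gene's reads carry an unknown factor that all its libraries share. The recovered reads entered the limma-voom alternative and, as library totals, the limits from a count of 0. Because of that factor the totals are not exact depths. Limits from a count of 0 use 3 counts and cover counting error only. The ratio of Slc30a8 to insulin transcripts was tested with scipy 1.17.1, and the other ratios were not tested. The text names all 10 members, up to 6 genes per zinc list by smallest adjusted p on TPM with Mt1, Mt2 and Mtf1, and the 5 genes nearest to Slc30a8, leaving out predicted genes and clone names. The members, lists and alternatives were chosen with earlier results of these data known. Coordinates are from GENCODE M21 on GRCm38 (mm10), and promoter windows, 250 bases before to 50 after the start, from RefSeq. The replicate numbers were not taken as pairs. Other α-cell markers are not reported here.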

Additional observations from a re-analysis of the deposited data

How the results depend on the processing

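The 5 Slc30a calls on TPM stayed at 5 or 6 and the 4 after rescaling at 3 or 4, over pseudocounts of 0.1 and 5, filters of 1 TPM or none, limma without trend and robust, limma-voom on recovered reads, βDKO 1 and βDKO 2 averaged, and each library left out. Slc30a8 was lower in every one of these fits, by log2 changes from −5.48 to −4.43, with adjusted p up to 3.17e-05. Replacing TPM by size factors without hormone transcripts gave nearly the same values as the rescaled fit, and 4 members were called, all lower. The calls over all genes went from 8949 to 4627 and over the 28 other zinc genes from 17 to 8. Among members and other zinc genes called in at least 1 of these fits, signs reversed for Slc30a1 (−0.39), Slc30a4 (−0.05), Slc30a5 (−0.05), Slc30a6 (−0.15), Slc30a9 (−0.36), Mt2 (−0.10), Mtf1 (−0.30), Slc39a1 (−0.53), Slc39a3 (−0.01), Slc39a6 (−0.21), Slc39a7 (−0.22) and Slc39a9 (−0.30). Cpd, called in neither fit, went from 0.54 to −0.28. The 8 other zinc genes called after rescaling became 5 with βDKO 1 and βDKO 2 averaged and 5 to 11 with each library left out, 5 of them without βDKO 1 and 5 without βDKO 2. The cause was not tested. Leaving out each library moved the log2 ratio of Slc30a8 to insulin from −2.22 to −1.81 and that to the other members from −5.26 to −5.12. Same-numbered libraries deviated together with correlations of −0.06, −0.03 and 0.21, and differently numbered ones with −0.26 to 0.24. The numbers were not taken to pair libraries because the labels do not say that they do. Whether same-numbered libraries share a batch cannot be told from these correlations. With the replicate block, 5 members were called on TPM and 3 after rescaling, Slc30a1 being lost (adjusted p = 0.0700), 16 and 6 other zinc genes, and 8838 and 4254 genes in all. The 3 genes at 0 limit any statement on them to the depth of the libraries.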
